A study of Mus musculus with 35 samples.

Results

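Mouse ovarian surface epithelial (MOSE) cells at passage 23 (p23) were compared with the same culture at passage 7 (p7). The comparison rests on 7 of the 35 arrays of the series, 4 of p23 and 3 of p7, chosen by their titles. Both passages were hybridized on arrays whose names fall in one number range, together with p14 and 3 arrays of p25, so the late change could be read without the p2 arrays that lie outside it. The labels give that number as a name only, and what it stands for is not stated. The cells were isolated from adult virgin females of the C57BL/6 strain and grown in supplemented DMEM with 4% FBS. No agent was given and no gene was altered, so that passage number is the one labelled difference between the groups. Each array set MOSE RNA against a common reference, total RNA of 1 entire newborn male mouse of the same strain, with the dyes exchanged between direct (d) and reverse (r) arrays. p23 had 2 direct and 2 reverse arrays, and p7 had 2 direct and 1 reverse. Each passage was 1 RNA preparation, so the p-values below reflect how well repeated hybridizations agreed, and the variation between cultures or animals was not measured.

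The ovarian surface epithelium is the single layer of mesothelium-like cells that covers the ovary. It carries epithelial keratins together with mesodermal factors such as Wt1, and it is known for shifting between epithelial and mesenchymal traits, as it does when it closes the wound left by ovulation. In culture, MOSE cells are known to transform on their own with passaging, without any added oncogene. p7 lies before and p23 after the point at which the model is usually taken to turn malignant.

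A level is the log2 ratio of MOSE signal to reference signal, averaged over the direct arrays and over the reverse arrays, and then over both. A level of 0 means as much signal as in the whole newborn mouse, and a difference of 1 between passages is a 2-fold change of that ratio. Ratios were scaled so that all arrays of the series had the same typical spread. The study's methods name a scaling over several slides without saying over which, and the authors' table has an equal spread within a passage but not between passages. That choice weighs heavily here. Before scaling, the median absolute log2 ratio was 0.198, 0.185 and 0.257 on the p7 arrays (d1, d2 and r1). On the p23 arrays it was 0.457, 0.248, 0.476 and 0.49 (d1, d2, r1 and r2). Scaling therefore divided the ratios of 3 p23 arrays by 1.76 to 1.89, those of p23 d2 by 0.954, and those of the p7 arrays by 0.711 to 0.989. Among the 436 clones more than 2 log2 units from the reference at p7, the p23 level was a median 0.45 of the p7 level after scaling. Among the 320 such clones of the unscaled ratios the median was 0.78. Scaling thus drew p23 levels nearer 0 than p7 levels, and differences below are given scaled and unscaled. The p23 arrays agreed less with one another (r of 0.262 to 0.53 over all clones) than the p7 arrays did (0.681 to 0.79). p23 d2 correlated better with the p7 arrays (0.594 to 0.709) than with the other p23 arrays (0.434 to 0.53). p23 d1 also correlated better with the p7 arrays (0.372 to 0.496) than with p23 r1 and r2 (0.313 and 0.262). Without p23 d2 the counts of clones that passed were 37 higher and 85 lower.

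With scaled ratios, limma with a dye term placed 87 of 15254 clones past an adjusted p of 0.01, which is 0.57% of all clones. 18 clones were higher at p23 (0.118%) and 69 were lower (0.452%). They stood for 15 genes that rose (0.203% of 7389 genes measured) and 52 that fell (0.704%), with 3 rising and 8 falling clones carrying no gene symbol. The median difference was 2.26 for the clones that rose and -1.88 for those that fell, and 1.54 and -1.24 in the unscaled ratios. No clone passed in limma on the unscaled ratios (1473 clones at an unadjusted p under 0.05), with scaling within each passage (1424) or in the authors' table (1417). 0 or 1 clone passed when any of the 3 p7 arrays or either reverse p23 array was left out, and 72 passed without p23 d1. All called clones that could be tested kept their direction in each of these fits. All 4 p23 arrays lay beyond all 3 p7 arrays for 16 of the 18 and for all 69, against 15.2% of all clones. Unscaled, this held for 13 of the 18 and 60 of the 69, against 11.4%. The clones were picked on these same arrays, so both the separation and the kept direction were favoured by the choice.

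The clones that passed in the scaled fit moved towards the reference. All 18 clones that rose were below the reference at p7, with a median level of -2.2, and reached a median of -0.21 at p23. All 69 that fell were above it, with a median of 2.37 at p7 and 0.43 at p23. The p23 level was nearer 0 in 17 of the 18 and in 69 of the 69. Over all clones 60.2% were nearer 0, and the scaling itself acts in that direction. Before scaling, the typical ratio was farther from 0 on p23 d1, r1 and r2 (0.457 to 0.49) than on the p7 arrays (0.185 to 0.257). On p23 d2 it was 0.248. The direction given here is thus that of the called clones in scaled ratios, not of all clones. Of the clones that passed, 7 of the 18 that rose and 11 of the 69 that fell crossed to the other side of the reference. Over all clones 33.5% crossed, a share that includes clones near 0 at p7, which need little change to cross. Of the 11, 1 clone of Ccnd2 did not cross in the unscaled ratios.

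**Figure D1:**
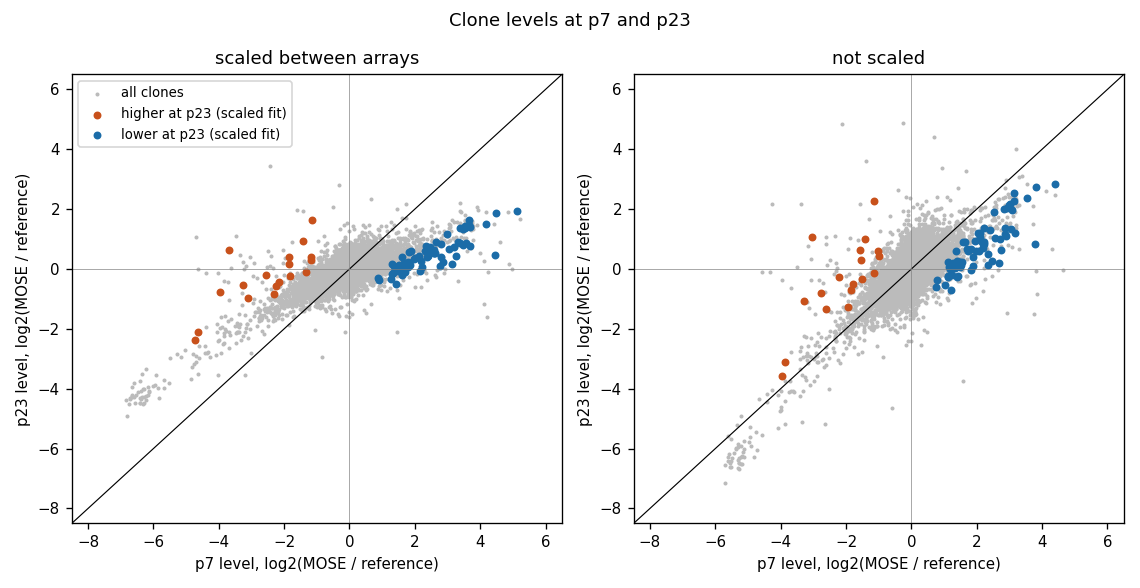
Level of each of 15254 clones at p7 (x axis) and p23 (y axis), as log2(MOSE / reference), with ratios scaled between arrays (left) and unscaled (right). Grey points are all clones, orange and blue points are the 18 and 69 clones that passed in the scaled fit, and the black line marks equal levels. In the scaled panel the cloud is flatter than the line and the coloured points lie towards a p23 level of 0, while in the unscaled panel they stay off the line on the same sides.

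Genes of the surface epithelium were among the largest falls. Wt1, the zinc-finger transcription factor of mesothelium and ovarian surface cells, had the largest fall among the named genes that passed. Its scaled ratios were 5.55, 5.65 and 4.69 on the p7 arrays, and 1.62, 3.15, 1.84 and 1.12 on the p23 arrays. The groups did not overlap, and the p23 d2 array was the highest of its group. The difference was -3.21 ± 0.36 (SE; adjusted p = 0.00676), and -1.47 unscaled. Aldh1a1, which makes retinoic acid and marks progenitor-like cells of the ovarian surface, had ratios of 4.06, 3.7 and 3.28 at p7. At p23 they were 0.51, 1.39, 0.44 and 1.2, a fall of 2.74 ± 0.29 (adjusted p = 0.00567). The unscaled difference was -1.73. Krt7, a keratin of simple epithelia, had 2.68, 3.19 and 1.81 at p7, and 0.42, 0.59, 0.24 and 0.34 at p23. All 4 late arrays were close together and below every early one, with a difference of -2.07 ± 0.23 (adjusted p = 0.00693; -1.4 unscaled). In such bulk RNA, fewer cells that express a gene and less RNA per cell cannot be told apart.

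Of 18 surface epithelium and mesothelium markers measured, these 3 fell, none rose and 15 had a negative difference (13 unscaled). At an adjusted p under 0.05, 10 were lower and none was higher, where 3.83% of all genes were lower and 1.8% higher. The median was -1.0 scaled and -0.36 unscaled, beside 0.04 and 0.01 over all genes. The other keratins differed less. Krt8 had -0.74 scaled and -0.95 unscaled as the mean of 3 clones, Krt18 had -0.6 and -0.48 as the mean of 2, and Krt19 had -1.55 and -0.15. None of these keratins passed. Podxl, a sialomucin of the apical membrane, had -1.99 (-1.27 unscaled), and Gata4, a gonadal transcription factor, had -1.79 (-0.14 unscaled). Cdh1, the epithelial cadherin, had 0.51 (0.12 unscaled) and Msln, a mesothelial surface protein, had 0.57 (1.19 unscaled), so that not all markers lay on the same side. The markers' median level stayed above the reference, at 1.76 at p7 and 0.76 at p23. All genes had a median level of -0.01 at p7, so the shares over all genes do not come from genes of a like level. Clones of any kind beyond 2 at p7 kept a median 0.45 of their level after scaling. Whether the markers fell more than other genes of their level was not tested.

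Sdc4, F11r, Alcam, Dag1, Atp1b1, Espn and Syne2 also fell. They are grouped here for description after their values were seen, and none of 33 genes in the list of focal adhesion and integrins passed (median -0.03 scaled and -0.13 unscaled). Sdc4, a heparan sulfate proteoglycan of focal adhesions, had 3.97, 4.18 and 2.84 at p7, and 1.04, 1.54, 0.4 and 0.21 at p23. The fall was 2.68 ± 0.18 (adjusted p = 0.00305; -1.7 unscaled) for 1 of its 3 clones. The other clones had -2.2 and -0.9 and did not pass. F11r, a junctional adhesion molecule of tight junctions, fell on both of its clones, by 2.25 and 2.04, and the unscaled differences were -0.91 and -0.61. Alcam, an immunoglobulin-like adhesion molecule, went from 2.51, 2.3 and 1.93 to -0.43, -0.35, 0.41 and 0.11. This put it at the level of the reference, with a difference of -2.35 ± 0.25 (adjusted p = 0.00578) that changed little without scaling (-1.97). Dag1, the dystroglycan that ties cells to the basement membrane, fell by 1.6 (-1.22 unscaled), and Atp1b1, the beta subunit of the sodium pump, by 2.14 (-0.81 unscaled) on 1 of 4 clones, the others having -2.49, -2.3 and -0.24. Espn, an actin-bundling protein of microvilli, fell by 2.51 (-1.63 unscaled), and Syne2, a nesprin of the nuclear envelope, by 2.18 (-0.82 unscaled) on 1 clone, while its other clone had -0.43.

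Lgals1 and Anxa1 fell within the list of S100, annexin and related genes. Lgals1, a galectin that binds surface glycans, had 3.75, 3.88 and 2.69 at p7, and 0.17, 0.91, 0.47 and 0.24 at p23. Its clones gave -2.9 ± 0.26 (adjusted p = 0.00421; -2.14 unscaled) and -2.45 ± 0.18 (adjusted p = 0.00305; -1.75 unscaled). The other clone had -2.9 and missed the threshold (adjusted p = 0.0126). Anxa1, a calcium-dependent phospholipid-binding protein, fell by 1.64 (-1.51 unscaled). These were 2 of 14 genes of the list, whose median was -0.05 scaled and -0.34 unscaled.

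Enzymes and stress-protective genes made up another share of the falls. Mt2, a metallothionein that binds zinc and copper, had 2.9, 3.23 and 2.19 at p7, and 0.62, 0.85, 0.35 and 0.39 at p23. The groups lay more than 1 log2 unit apart at their nearest arrays, and the difference was -2.12 ± 0.18 (adjusted p = 0.00421; -1.37 unscaled). Prdx1, a peroxiredoxin that removes peroxides, fell by 1.66 (-1.27 unscaled). Gstm1, a glutathione transferase of a family with similar sequences, fell by 1.88 (-0.68 unscaled) on 1 of its 3 clones, the others having -1.79 and 0.46. Of 33 antioxidant, glutathione and ferritin genes these 3 fell and none rose, with a median of -0.24 scaled and -0.25 unscaled. Mt1 had -2.61 (adjusted p = 0.0113) and Nfe2l2, the transcription factor that drives many antioxidant genes, had -2.23 (adjusted p = 0.0113), both short of the threshold. Aox3, an aldehyde oxidase, fell by 2.16 ± 0.15 (-1.76 unscaled), with p23 ratios of 0.09, 0.15, 0.1 and -0.05 against 2.5, 2.18 and 2.1. Ldhb, the heart-type lactate dehydrogenase subunit, fell by 2.14 (-1.44 unscaled). Me1, the cytosolic malic enzyme, fell by 1.55 (-1.14 unscaled) on 1 of 4 clones, the others having -1.35 to -1.02.

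Ctsl and Ctsb, lysosomal cysteine proteases, fell by 2.17 (-0.89 unscaled) and 1.43 (-1.06 unscaled). They were the 2 of 37 lysosomal genes that passed. 27 of the 37 had a negative difference, and the list's median was -0.44 scaled and -0.26 unscaled. At an adjusted p under 0.05, 11 lysosomal genes were lower and none was higher, where 3.83% of all genes were lower. Those that did not pass at 0.01 included Ctsh (-1.48), Psap, the saposin precursor (-1.11), and Ctsd (-0.85). Ctsb rests on 1 clone, since its other clone had -0.29, and Ctsl on 1 of 2 clones that both lay below -2.

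Ccnd2, a D-type cyclin of the G1 phase, fell on 3 of its 5 clones, by 1.83, 1.45 and 1.29. The clone with the largest fall had 1.54, 1.56 and 1.69 at p7, and -0.02, -0.54, -0.43 and 0.13 at p23. The unscaled differences of the 3 clones were -1.63, -1.19 and -0.7, and the other clones had -1.49 and -1.09. Rrm1, the large subunit of ribonucleotide reductase, fell by 1.44 (-1.09 unscaled). These were 2 of 44 genes of G1/S and DNA replication, and the others were spread on both sides, with a list median of 0.08 (-0.05 unscaled). None of 58 mitotic genes passed. 49 of them had a positive difference, but 34 did without scaling, and the median moved from 0.31 to 0.1.

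Secreted proteins fell and rose. Dcn, the small proteoglycan decorin, had 1.65, 1.41 and 1.29 at p7, and -0.45, -0.84, -0.57 and -0.1 at p23. It crossed the reference, and its difference was nearly the same with and without scaling, -1.96 ± 0.21 (adjusted p = 0.00581) and -1.91. C1s1, a complement protease, fell by 2.76 (-2.22 unscaled), Plat, the tissue plasminogen activator, by 1.78 (-1.44 unscaled) and Clu, the extracellular chaperone clusterin, by 1.2 (-1.2 unscaled). Plat had a further clone at -0.07. Among the transcription-related genes, Tsc22d1, a leucine zipper protein induced by TGF-beta, fell on 3 of its 5 clones, by 1.75, 1.74 and 1.6 (-1.01, -1.11 and -1.07 unscaled). Gpcpd1, a glycerophosphocholine phosphodiesterase, fell on all 3 of its clones, by 2.55, 2.46 and 1.88 (-1.71, -1.54 and -1.17 unscaled).

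Of the remaining genes among the 20 largest falls, Pcp4l1 fell by 2.95, Cryl1 by 2.61, Prkcsh by 2.59 and Bicdl1 by 2.49. Their unscaled differences were -1.93, -2.13, -0.95 and -1.51. Prkcsh was dim, with a reference signal below the local background on at least 1 array, and its other clone had 0.33. The clone with the largest fall of all, H3097D08, has no gene symbol. Its ratios were 4.69, 5.17 and 3.96 at p7, and -0.09, 0.06, 0.89 and 1.0 at p23, so that a transcript far above the newborn reference came close to it (difference -4.17 ± 0.38, adjusted p = 0.00421; -3.07 unscaled).

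**Figure D2:**
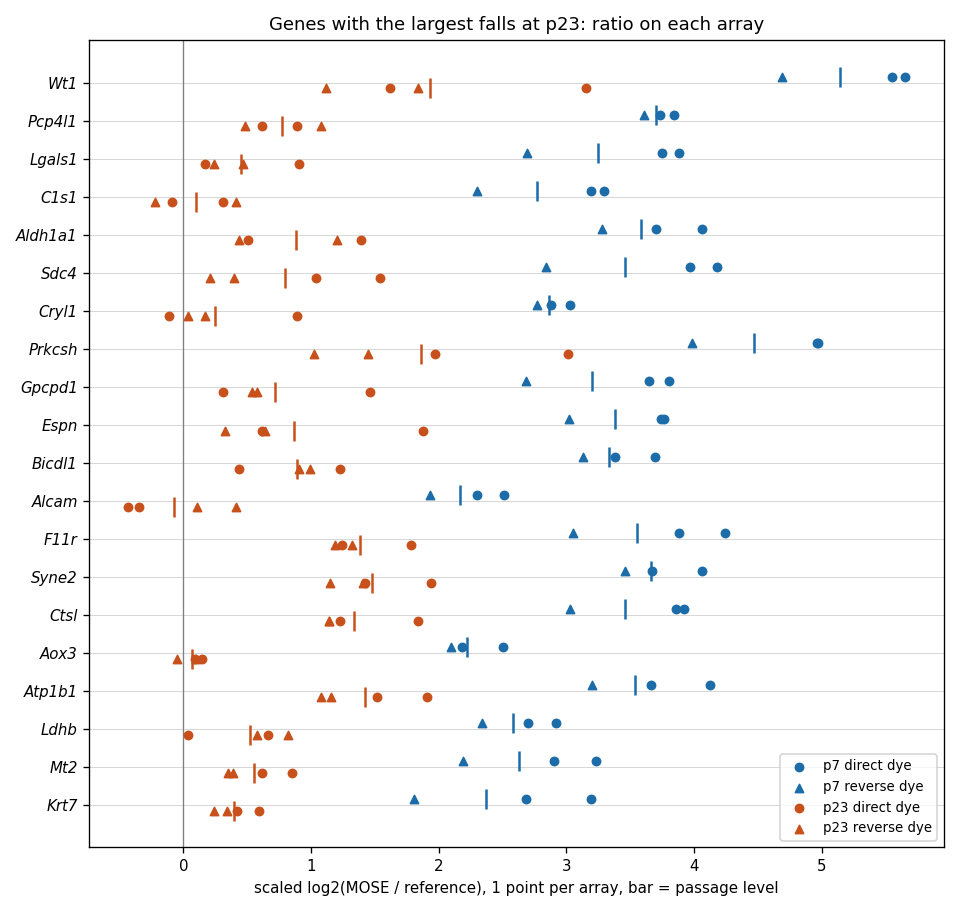
Scaled log2(MOSE / reference) on each array (x axis) for the 20 named genes with the largest falls (rows), with p7 in blue and p23 in orange, circles for direct and triangles for reverse arrays, and a bar at the passage level. For each gene the 4 orange points lie to the left of the 3 blue ones. For most of these genes, Wt1, Espn and Prkcsh among them, the p23 point farthest to the right is a direct array, p23 d2.

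The genes that rose included several of the extracellular matrix. Fn1, the fibronectin that links cells to the matrix, had the largest rise among the named genes. Its ratios were -5.22, -4.69 and -2.97 at p7, and -0.85, -1.56, -0.23 and -0.45 at p23. All late arrays were above all early ones, and the difference was 3.3 ± 0.3 (adjusted p = 0.00421; 2.22 unscaled). Gpc3, a glypican that modulates growth factor and Hedgehog signaling, went from -3.94, -3.47 and -2.84 to -0.61, -0.82, -0.51 and -0.19. The rise was 2.79 ± 0.2 (adjusted p = 0.00305; 1.95 unscaled). Mmp2, a gelatinase that cleaves type IV collagen, had -2.41, -2.29 and -1.37 at p7, and 0.34, -0.03, 0.14 and 0.19 at p23. It reached the reference level, with a difference of 2.12 ± 0.23 (adjusted p = 0.00631) that held at 1.88 without scaling. Col5a2, a fibrillar collagen chain, rose by 1.65 ± 0.17 (adjusted p = 0.00567), with an unscaled difference of 0.96. Its passages overlapped, since its p23 direct arrays had -1.52 and -1.46 and its reverse arrays 0.17 and 0.49.

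In the list of collagens and structural matrix, 3 of 40 genes rose (Fn1, Gpc3 and Col5a2) and 2 fell (Sdc4 and Dcn). 29 of the 40 had a positive difference and the median was 0.84, which shrank to 0.13 without scaling. It turned to -0.11 with scaling within each passage. Mgp, the matrix Gla protein, had 1.91 (1.52 unscaled) and Fbln2, a fibulin, had 1.4 (1.01 unscaled), and both missed the threshold. Col1a1 had 3.01 scaled but 0.32 unscaled, and Col3a1 had 0.93 and -0.48, so that Col3a1 changed sign with the scaling and Col1a1 lost most of its difference. The basement membrane collagens Col4a1 and Col4a2 had -0.75 and -1.0, and -1.41 and -1.34 unscaled. Pdgfra, a mesenchymal growth factor receptor, was just short of the threshold at 1.62 (adjusted p = 0.0103; 1.06 unscaled). Among inhibitors of matrix proteases, Timp2 had -1.91 (-0.54 unscaled) and Timp3 had -1.58 for its clone with the lower p (-0.71 unscaled), neither past the threshold.

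P4ha2, Slc2a1 and Bnip3 rose as well. All 3 are known targets of hypoxia-inducible factor (HIF), the transcription factor that is stabilized when oxygen or prolyl hydroxylase activity is low. The grouping was made after their values were seen. P4ha2, a collagen prolyl hydroxylase, had -1.08, -1.26 and -1.18 at p7, and 0.52, 0.68, 0.31 and 0.11 at p23. Its early arrays were close together, its late arrays were all above the reference, and the difference was 1.62 ± 0.16 (adjusted p = 0.0046) and 1.61 unscaled. Slc2a1, the glucose transporter GLUT1, had -1.56, -1.33 and -0.9 at p7, and 0.37, 0.4, 0.2 and 0.21 at p23. It also crossed the reference, with 1.54 ± 0.19 (adjusted p = 0.00932) and 1.46 unscaled. Bnip3, a mitochondrial protein of mitophagy, went from -2.39, -2.65 and -1.77 to -0.87, -1.19, 0.25 and 0.08, a rise of 1.67 ± 0.18 (adjusted p = 0.00567; 1.14 unscaled).

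The promoters of these 3 genes are shown because the core of the HIF binding element, ACGTG, could be looked for in them. Each sequence is the RefSeq window on GRCm38.p6 from 250 bases before to 50 bases after the annotated start of the gene, and capitals mark ACGTG on either strand (CACGT is its reverse complement). Slc2a1 is on the plus strand at chr4:119108495-119108794, P4ha2 on the plus strand at chr11:54100674-54100973 and Bnip3 on the minus strand at chr7:138909457-138909756.
Slc2a1: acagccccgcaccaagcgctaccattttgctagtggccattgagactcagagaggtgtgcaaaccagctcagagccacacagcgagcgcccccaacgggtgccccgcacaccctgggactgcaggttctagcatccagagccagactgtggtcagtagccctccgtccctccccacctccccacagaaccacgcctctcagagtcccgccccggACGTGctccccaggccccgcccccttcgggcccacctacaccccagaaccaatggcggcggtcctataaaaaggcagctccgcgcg
P4ha2: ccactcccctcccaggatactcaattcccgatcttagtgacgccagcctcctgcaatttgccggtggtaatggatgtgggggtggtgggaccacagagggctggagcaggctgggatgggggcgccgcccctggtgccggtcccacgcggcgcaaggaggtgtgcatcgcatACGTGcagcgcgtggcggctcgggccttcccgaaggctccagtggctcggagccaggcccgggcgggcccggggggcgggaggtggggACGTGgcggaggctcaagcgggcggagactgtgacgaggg
Bnip3: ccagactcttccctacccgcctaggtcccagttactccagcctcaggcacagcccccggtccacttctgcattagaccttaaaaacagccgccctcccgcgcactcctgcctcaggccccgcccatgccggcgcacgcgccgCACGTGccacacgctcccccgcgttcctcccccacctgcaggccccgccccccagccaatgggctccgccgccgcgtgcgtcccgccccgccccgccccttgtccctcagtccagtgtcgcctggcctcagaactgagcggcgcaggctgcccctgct

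ACGTG occurred on 1 stretch in Slc2a1, on 2 stretches in P4ha2 and on 1 stretch in Bnip3, where the matches on the forward and reverse strands overlap in CACGTG, which is also the E-box core. For the scale of such matches, 19.6% of all 32851 promoter windows of the same length held the motif on either strand, and 21.8% of 27025 genes had a window that did. Of the 15 genes that rose, 10 had a window and 5 of them held it (P4ha2, Slc2a1, Bnip3, Klf4 and Sec24d). Of the 52 genes that fell, 39 had a window and 9 held it (23.1%). P4ha2, Slc2a1 and Bnip3 were looked at because they are known HIF targets. Whether the motif was more frequent in either set was not tested. A match is a description of the letters in the window and not a bound site.

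Other genes known to respond to HIF lay on both sides, and none of those given here passed. They were also picked after their values were seen. Ndrg1, a stress-induced differentiation gene, had -1.68, -1.4 and -1.09 at p7, and 0.11, 0.46, -0.12 and 0.3 at p23, a difference of 1.56 ± 0.21 (adjusted p = 0.0117; 1.37 unscaled). Ero1a, an oxidoreductase of the endoplasmic reticulum, had 1.67 ± 0.25 (adjusted p = 0.0157), which was larger without scaling (2.21). Pdk1, a kinase that restrains pyruvate oxidation, had 0.98 ± 0.16 (adjusted p = 0.0185; 0.88 unscaled). On the negative side, P4ha1, an alternative isoform to P4ha2, had -0.36 (-0.86 unscaled), and Slc16a3, a lactate exporter, had -0.48 (-0.93 unscaled). Among 16 genes of glycolysis and glucose handling, Slc2a1 rose, Ldhb fell and 14 had a positive difference, with a median of 0.49 scaled and 0.27 unscaled. Ldha, a lactate dehydrogenase subunit and HIF target, had 0.59 scaled but 0.03 unscaled.

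Klf4, a zinc-finger factor of epithelial differentiation and pluripotency, rose by 2.35 ± 0.28 (adjusted p = 0.00855; 1.85 unscaled) from -3.24, -2.02 and -2.5 to -0.3, -0.35, -0.21 and 0.07. Its other clone had 1.73 and did not pass. Arc, an activity-regulated gene best known from neurons, rose by 1.67 (1.18 unscaled). They were 2 of 20 immediate early and growth genes, with a list median of 0.18 (0.05 unscaled). Id2, an inhibitor of basic helix-loop-helix factors, had 1.14 (adjusted p = 0.0103; 0.99 unscaled). Sec24d, a coat protein of vesicles that carry procollagen, rose by 1.19 ± 0.14 (adjusted p = 0.00818; 0.93 unscaled), the smallest rise among the named genes that passed.

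Grb10 and Peg3, imprinted genes that act on growth, rose by 1.45 ± 0.14 (adjusted p = 0.0046) and 2.16 ± 0.25 (adjusted p = 0.00818). Unscaled they had 0.62, with overlapping arrays, and 1.23. Of 17 imprinted genes these 2 rose and Dcn fell. The list's median of 0.92 turned to -0.19 without scaling, and H19 (2.39 scaled, -0.87 unscaled), Mest (1.05 and -1.39) and Cdkn1c (1.6 and -0.68) changed sign, so no direction of the imprinted genes as a group can be given. Nrep, a neuronal regeneration-related gene, rose by 2.39 ± 0.3 scaled (adjusted p = 0.00932), but its unscaled difference was 0.34.

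3 clones that rose were at or near the local background. Eif3d, a translation initiation subunit, had 2.84 scaled and 3.49 unscaled, but its spot was marked not found on 4 of the 7 arrays and its other clone had 0.19. Fbxl19, an F-box protein, had 2.41, with its spot not found on any of the 7 arrays and p23 ratios of 2.32, 3.18, -0.79 and -0.89 that split by dye. H3110E11, with no symbol, had the largest rise of all clones, 4.48 ± 0.41, and was not found on 2 arrays. With normexp background the difference was 0.87 for Eif3d (adjusted p = 0.175) and 0.06 for Fbxl19 (adjusted p = 0.878), so that both calls were lost, and 4.91 for H3110E11 (adjusted p = 0.00195).

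**Figure D3:**
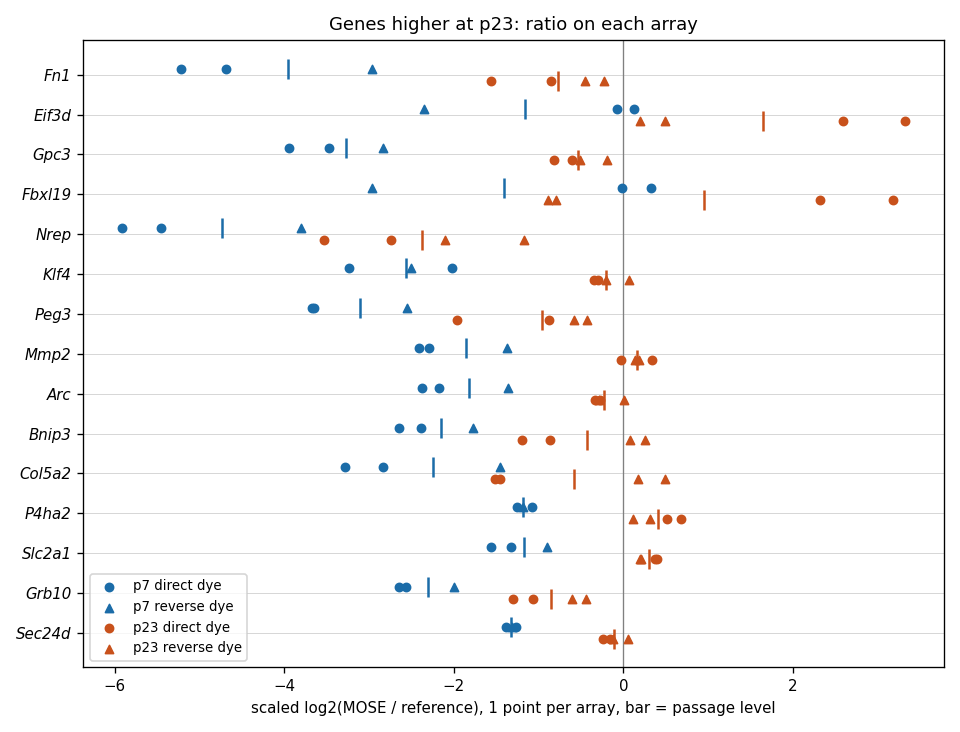
Scaled log2(MOSE / reference) on each array (x axis) for the 15 named genes that rose (rows), with p7 in blue and p23 in orange, circles for direct and triangles for reverse arrays, and a bar at the passage level. P4ha2, Slc2a1, Mmp2 and Klf4 show tight p23 points to the right of all p7 points, whereas Eif3d and Fbxl19 split by dye and Fbxl19 and Col5a2 overlap.

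Cytosolic ribosomal proteins differed little one by one but lay on one side. None of 77 passed. 65 of them had a positive difference scaled and 67 unscaled, where 54.4% and 51.0% of all genes did, and the median was 0.29 scaled and 0.37 unscaled. The list therefore kept its side under both treatments. At an adjusted p under 0.05, 5 were higher and none was lower, and over all genes 1.8% were higher. Rps6, a protein of the small subunit, had -0.45, -0.67 and -0.1 at p7, and 0.49, 0.76, 0.52 and 0.77 at p23 on the clone with the lowest p (1.01 ± 0.17, adjusted p = 0.0236; 1.25 unscaled), and its other 3 clones had 0.4 to 0.64. Rpl36, of the large subunit, had 1.02 ± 0.18 (adjusted p = 0.0268; 1.26 unscaled). cDNA spots of this family can also bind transcripts of related sequences.

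Some clones differed the other way, away from the reference. Of 617 clones at an adjusted p under 0.05, 43 were farther from 0 at p23 than at p7, 17 of them higher and 26 lower, and all 43 differences were larger without scaling. Apart from Eif3d these did not pass at 0.01. Several of the lower ones were genes of the actomyosin apparatus. Mylk, the myosin light chain kinase, had 0.31, 0.48 and 0.5 at p7, and -1.39, -2.15, -1.05 and -0.9 at p23, a difference of -1.89 ± 0.24 with an adjusted p of 0.01 to the digits given (-2.45 unscaled). Tpm1, a tropomyosin, had -0.99 ± 0.16 (adjusted p = 0.0183; -1.45 unscaled), and its other clones had -0.74 and 0.38. Myl6, a myosin light chain, had -1.16 (adjusted p = 0.0467; -1.59 unscaled). Actb, the cytoplasmic beta-actin, had -1.09 on the lowest of 8 clones (adjusted p = 0.0421; -1.72 unscaled), while the 8 clones averaged -0.38 and -0.78 unscaled.

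Over the list of 44 actin and contractile genes, Cnn3, a calponin, fell by 1.57 (-1.26 unscaled) and none rose. 26 had a negative difference scaled and 31 unscaled, with medians of -0.1 and -0.21. At an adjusted p under 0.05, 8 were lower and 2 higher, the latter being Tagln2 (1.29) and Fscn1 (1.18), beside 3.83% and 1.8% of all genes. Among the 8, Actb, Tpm1 and Myl6 went farther from the reference, while Ezr, Cald1, Cnn3, Arpc2 and Myl12a came nearer to it. Ezr had the list's lowest difference, -2.09 as the mean of 4 clones (-0.8 unscaled), with levels of 3.6 at p7 and 1.54 at p23, and did not pass. Lama5, a laminin chain of epithelial basement membranes, had -0.97 on 1 of 2 clones (adjusted p = 0.0221; -1.3 unscaled). Sparc, a matricellular protein, had -1.17 on 1 clone (adjusted p = 0.0232) and 0.99 on another, so its clones disagreed.

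Malat1, a long nuclear RNA, had -1.58 ± 0.22 on the clone with the lowest p (adjusted p = 0.0125; -1.62 unscaled), and its other clones had -1.83 and -0.92. 10 of 12 genes of the list of paraspeckle and nuclear RNAs and proteins were negative with and without scaling, the median being -0.34 and -0.37, and none passed. Of 29 cytosolic chaperones and heat shock proteins none passed, 22 were negative scaled and 18 unscaled, and 5 were lower at an adjusted p under 0.05, beside 3.83% of all genes. Hspa8 had -0.95 and Hsp90aa1 had -0.91 as means over their clones (-0.59 and -0.65 unscaled). Chaperones of the endoplasmic reticulum lay the other way, with 19 of 26 positive scaled and 21 unscaled and medians of 0.16 and 0.33, and none passed.

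**Figure D4:**
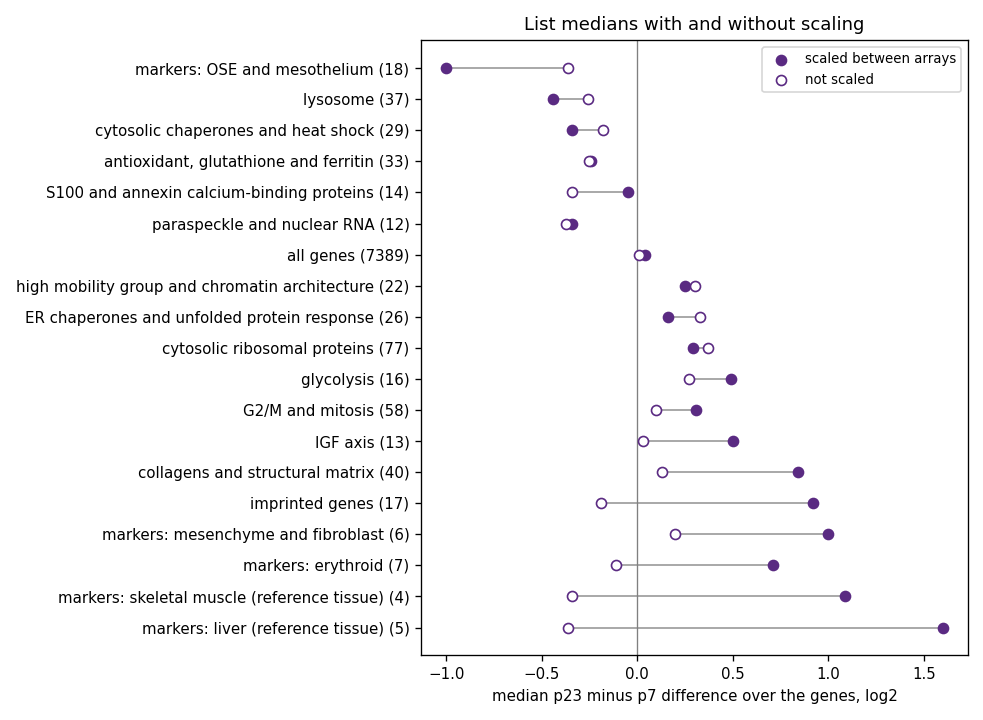
Median p23 minus p7 difference (x axis, log2) over the measured genes of 18 gene lists and of all genes (rows, number of genes in brackets), with scaled ratios as filled and unscaled ratios as open circles. Surface epithelium markers, lysosomal genes and cytosolic chaperones lie below 0 and ribosomal proteins above 0 with both circles, while the imprinted, erythroid, muscle and liver lists have circles on both sides of 0.

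The study names 12 oncogene-related genes for p23, and 11 of them were matched to clones by symbol. Fgfr1op2 was not matched, which does not mean that the arrays lacked it. None of the 11 passed against p7. Their median was -0.03 scaled and -0.54 unscaled. Ndrg1 had the largest difference, given above. Mycbp, which binds Myc, had -0.92 as the mean of 2 clones scaled and unscaled. Myc itself had 0.33 and 0.38, also from 2 clones. Rsu1, a suppressor of Ras signaling, had -0.69 (-0.8 unscaled), Akt1, a survival kinase, -0.46 (-0.71), Rala -0.43 (-0.72) and Rap1b -0.36 (-0.57), the last pair being Ras-related GTPases. Rhoa, a GTPase of the cytoskeleton, had -0.03 and -0.03 over 3 clones. Lyn (0.05 and -0.47), Tet3 (0.15 and -0.18) and Hras (0.16 and -0.54) changed sign with the scaling. The study chose these genes on the p23 arrays against another baseline, so they are no independent list.

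Markers of other tissues bear on how these ratios are read. Liver markers, which a surface epithelium is not known to express and the newborn reference holds, had a median level of -4.41 at p7 and -2.8 at p23, a median difference of 1.6 over 5 genes scaled and -0.36 unscaled. Alb, the liver's albumin, had 2.89 scaled and -0.44 unscaled. The 7 erythroid genes had 0.71 and -0.11, and 4 skeletal muscle genes had 1.09 and -0.34. The 9 neural genes kept their side, with a median of 0.92 scaled and 0.45 unscaled. Of these neural genes 9 had a positive difference scaled and 6 unscaled, and the median was 0.22 with scaling within each passage. None of these genes passed. Of cell types that an ovarian culture could hold, 6 mesenchymal genes had median levels of -2.13 at p7 and -0.8 at p23, 6 macrophage and leukocyte genes -1.11 and -0.64, 3 endothelial genes -1.54 and -1.04, and 2 granulosa genes 0.55 and 0.25. These are scaled levels, and the median differences shrank or turned without scaling. They went from 1.0 to 0.2 for mesenchyme, from 0.48 to 0.07 for macrophages and leukocytes, from 0.51 to -0.23 for endothelium and from -0.25 to -0.12 for granulosa. With scaling within each passage the mesenchymal median was -0.12. Apart from the mesenchymal Dcn, which fell, no marker of these types passed. The part of such markers in the genes that rose was not tested.

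The same clones were read at the other passages, of which p14 and 3 arrays of p25 share the number range and the rest do not. The levels of these courses are scaled and rest on 1 clone per gene unless stated. For the 18 clones that rose, the median level over the 4 early passages (p2, p5, p7, p10) was -2.06, -1.94, -2.2 and -1.93. Over the 5 later passages, p14 to p28, it was -0.64, -1.31, -0.21, -0.33 and -0.35. For the 69 that fell it was 2.08, 2.08, 2.37 and 1.73 early, and 1.08, 0.98, 0.43, 1.21 and 0.83 later. In both sets the levels of p14 to p28 were nearer the reference than those of p2 to p10. p7 and p23 were the extremes in both sets, which the choice of clones on these passages favours. Fn1 was at -3.96 at p7, -0.16 at p10 and 1.49 at p14, lay below the reference again at p18 and p23 (-0.53 and -0.77), and was at 0.49 and 1.43 at p25 and p28. Mmp2 went from -1.86 at p7 to -0.32 at p10 and stayed between -0.25 and 0.62 from p14 on. Slc2a1 and P4ha2 had their highest levels at p23 (0.3 and 0.41) and were at -0.5 and 0.09 at p28.

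The falls followed several courses. Wt1 stayed between 5.03 and 5.76 until p10, then had 3.94, 3.02 and 1.93 at p14, p18 and p23, and 3.31 and 3.18 at p25 and p28. In the unscaled ratios it had 4.38 at p7, 4.21 at p14 and 2.83 at p23, so that little of its difference was present by p14. Krt7 reached 0.4 at p23 and was at 1.84 at p25. The clones of Ccnd2 differed in course. The clone with the largest fall had 0.12 and 0.16 at p2 and p5, 1.62 at p7, and between -0.55 and -0.09 from p14 on. Clone H3133B06, which also fell, had 1.2, 1.98 and 1.82 at p2, p5 and p7, 0.19, 1.41 and 0.56 at p14, p18 and p23, and 1.16 at p25. Mt2 had 1.13 at p2, 2.59 and 2.63 at p5 and p7, and 0.62 at p10. It then lay at -0.45 at p14, 0.55 at p23 and -1.95 at p28. Clu had 2.26 at p2, 0.64 at p5 and 0.87 at p7, and was at -0.31 at p23. Bnip3 had -7.51 at p5, a value far from those of all other passages.

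**Figure D5:**
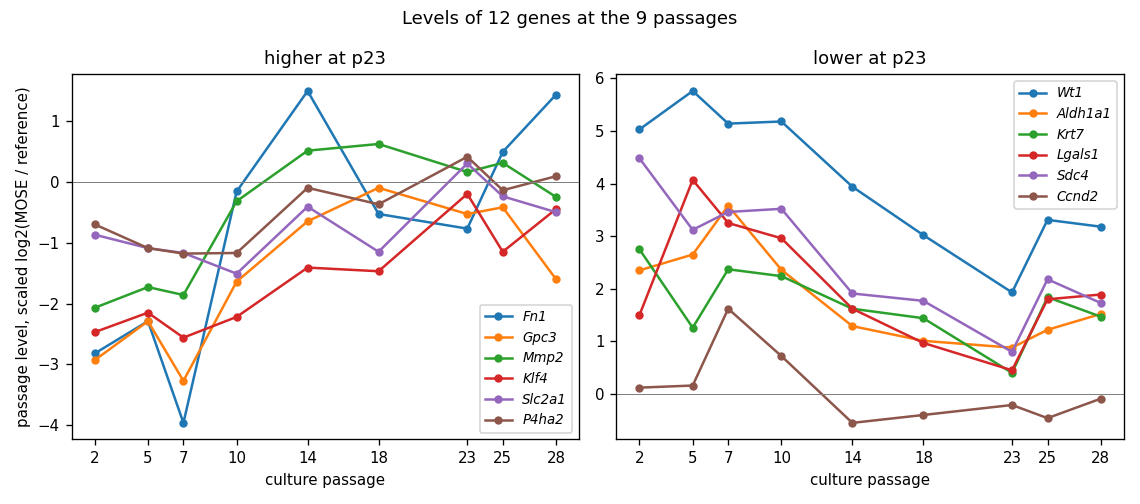
Passage level, scaled log2(MOSE / reference) (y axis), at the 9 culture passages (x axis) for 6 genes that rose (left) and 6 that fell (right) between p7 and p23, 1 clone per gene. Fn1 and Mmp2 leave their low levels by p10 to p14, Slc2a1 and P4ha2 peak at p23, Wt1 stays high until p10, and the Ccnd2 clone shown is highest at p7, which another clone of the gene is not.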

How the data were processed

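The labels give total RNA extracted with Trizol, labelled directly with Cy3 or Cy5 and hybridized to spotted cDNA arrays of 15488 spots. The authors deposited GenePix scanner files with spot and background intensities and a table of normalized log2 ratios, which per the study's methods was made with background subtraction with a floor, loess and scaling over slides. From the deposited intensities, background was subtracted with a floor of 0.5, ratios were normalized by print-tip loess over 32 blocks, scaled to one median absolute log2 ratio over all 35 arrays, turned to MOSE over reference, and averaged over the spots of each of 15254 clones (limma 3.58.1, R 4.3.3). The authors' table, used as an alternative, matched 98.2% of its 15023 rows to clones by their values. In it the typical spread was equal within a passage and not between passages. Array signal gives no read depth; on the 7 arrays 99.3% to 99.6% of spots had both channels above local background.

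limma (lmFit, eBayes) was fitted to the 7 arrays with passage and dye orientation, and Benjamini-Hochberg adjusted p-values over all clones were called under 0.01. The fit was also run on simulated clones with the same noise on every array. That simulation leaves out the scaling and the poorer agreement of the p23 arrays, so it cannot speak for the calls. Symbols were updated with RefSeq: 10098 clones carried one, for 7389 genes. Named genes were the 15 largest rises and 20 largest falls past the threshold, the study's p23 genes, and for each list the members that passed or up to 4 with the largest difference; a few others were chosen after their values were seen. Where a list gives 1 value per gene, its clones were averaged. The genes, lists and comparison were chosen with earlier results of these data known. Alternatives changed the dye term, background, loess, scaling, arrays, filters, threshold and signals used.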

Additional observations from a re-analysis of the deposited data

Results flagged for a closer look

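Among the 4 p23 arrays, a test for a single far value (Dixon's) was run on 108 named clones, and 2 had one, where chance gives about 1 in 20. Ctsl had 1.84 on the p23 d2 array, against 1.14, 1.14 and 1.23 on the others. Prdx1 had 0.44 on the same array, against 0.09, 0.09 and 0.14. Both values lay nearer to those of p7 and still below them.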

How the results depend on the processing

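Against 18 clones higher and 69 lower (87 in all), the counts moved by over 1.5 times under many settings. Every called clone that was tested kept its direction in all 20 other fits, which rest on the same p7 and p23 arrays. Normexp background gave 55 and 132 (187 in all), leaving out the dye term 9 and 57 (66), leaving out dim spots 53 and 180 (233), leaving out spots not found 64 and 208 (272), and a threshold of 0.05 gave 171 and 446 (617). Fitting all 35 arrays together gave 269 and 553 (822), and the arrays of the number range alone 82 and 249 (331). No scaling, scaling within each passage and the authors' table gave 0 and 0 (0 in all), with 1473, 1424 and 1417 clones at an unadjusted p under 0.05 in limma. No scaling with array weights, chosen after seeing the data, gave 65 and 145 (210), of which 61 were among the 87. Global loess gave 17 and 52 (69), and scaling over the 7 arrays alone 18 and 69. With the replicate block 1 clone was higher and 0 lower (1 in all, 2645 at an unadjusted p under 0.05). The replicate numbers were not taken to pair the arrays. Same-numbered arrays deviated from their passage mean together with r of 0.0776, 0.166 and 0.287, the last being the highest of all pairs. p23 d2 correlated better with p7 d1 (0.197) than with p7 d2. The dye was not taken out of these deviations, and arrays of opposite orientation had r of -0.321 to -0.101. The values therefore cannot tell whether the numbers pair the arrays.

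Leaving out 1 array gave 0 to 122 clones, 0 to 37 higher and 0 to 85 lower. The highest counts were without p23 d2 (57 of the 87 among them). Without p7 d1, p7 d2 or p23 r1 there were 0, and 1 without p7 r1 or p23 r2, with 2029 to 2761 at an unadjusted p under 0.05. The medians of 12 of 40 gene lists changed sign without scaling. What moved the counts was not tested. With 1 RNA preparation per passage the number of arrays limits the precision, and spots near background have uncertain ratios.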

Other observations

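Genes of chromatin architecture and of the high mobility group had a positive difference in 18 of 22 cases scaled and in 16 unscaled, with medians of 0.25 and 0.3, and none passed. Of 38 proteasome genes, Psmd8, a regulatory lid subunit, fell by 1.81 (-1.61 unscaled), none rose and 23 were negative scaled and unscaled, the medians being -0.08 and -0.07. In the list of focal adhesion and integrin genes none of 33 passed, and 19 were negative scaled and 25 unscaled. Gas6, a ligand of the TAM receptor kinases, had -3.15 (adjusted p = 0.0117; -1.89 unscaled) and did not pass in limma.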
